A study of Homo sapiens with 19 samples.

Results

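The 3 members of the ezrin, radixin and moesin family were followed through depletion of HMGN5 or STAT3 in MDA-MB-231 cells, a human line derived from triple-negative breast cancer and widely used as a model of it. Members were taken by transcript ID: ENST00000360270 for moesin (MSN), ENST00000337147 and ENST00000367075 for ezrin (EZR), and ENST00000343115 and ENST00000405097 for radixin (RDX). All 5 were present among the 175775 transcripts listed for each library. The family was chosen with the estimated reads of these transcripts in the 6 groups already known, so the levels and differences below are descriptions, given with their spread and without p-values. Other transcripts of the 3 genes were not part of the choice and are not analysed here. RefSeq lists 6 transcripts of MSN and 3 of EZR. Levels of moesin and ezrin below therefore describe the listed transcripts and not the whole genes.

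Poly(A) RNA was sequenced from 17 libraries in 2 experiments, all of cells given 30 nM siRNA and grown with 10% serum. In the siRNA experiment cells received an siRNA against HMGN5 (siHMGN5, 2 libraries), an siRNA against STAT3 (siSTAT3, 2 libraries) or a control siRNA (NC, 4 libraries). In the lentiviral experiment they received siRNA against STAT3 plus lentiviral HMGN5 (siSTAT3_HMGN5, 3 libraries), the same STAT3 treatment with an empty vector (siSTAT3_Vec, 3 libraries) or control siRNA plus that vector (NC_Vec, 3 libraries). HMGN5 is a nucleosome-binding protein, and STAT3 is a transcription factor activated downstream of cytokine and growth factor receptors. The study is of 1 cell line, and the sequences of the siRNAs are not given in the sources used here.

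Ezrin, radixin and moesin link the cortical actin cytoskeleton to the plasma membrane. Their amino-terminal FERM domain binds membrane lipids and the tails of receptors such as CD44, and their carboxy-terminal tail binds filamentous actin. The closed, inactive form opens after lipid binding and phosphorylation of a threonine in the tail. Ezrin is typical of epithelial cells and microvilli, whereas moesin is prominent in leukocytes, endothelium and cells with mesenchymal features, and radixin is best known from hepatocytes and the hair cells of the inner ear.

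Libraries held 19114033 to 23047081 estimated reads, and 3 reads in a library were worth 0.13 to 0.157 CPM, the count as a share of the scaled library total. The NC libraries formed 2 pairs: setting NC replicates 3 and 4 against NC replicates 1 and 2 called 3262 of 74346 transcripts, or 4.39% (edgeR quasi-likelihood test, adjusted p under 0.05). Log2 fold changes of MSN and of the EZR sum against NC are therefore also given against each pair. No label states whether replicates are separate cultures, and their spread may thus be technical. The transcript IDs are not paired with gene names in the files. The levels of STAT3 and HMGN5, the markers of the cell line and the partners of the family were therefore not analysed here. Depletion and ectopic HMGN5 are thus taken from the sample labels and were not measured.

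The promoter windows of the 2 genes that were measured well are shown because depletion of STAT3, a DNA-binding factor, and of HMGN5 is the subject of the comparisons. Each runs from 250 bases before an annotated start of transcription to 50 bases from it, is taken from RefSeq (GRCh38.p14), and is written 5′ to 3′ on the strand of the gene, with the first transcribed base in capitals. MSN lies on the plus strand of chromosome X (65588377 to 65741931) and has 2 windows, at chrX:65588127-65588426 and chrX:65667404-65667703. EZR lies on the minus strand of chromosome 6 (158765748 to 158819368), with its window at chr6:158818186-158818485. Which MSN window precedes ENST00000360270 is not stated in the sources used here, nor whether the EZR window precedes either listed EZR transcript. The first transcribed base of the EZR window, 158818235, lies inside the annotated gene, whose 5′ end is at 158819368. Any EZR start at that end has no window here and was not searched.
MSN first window: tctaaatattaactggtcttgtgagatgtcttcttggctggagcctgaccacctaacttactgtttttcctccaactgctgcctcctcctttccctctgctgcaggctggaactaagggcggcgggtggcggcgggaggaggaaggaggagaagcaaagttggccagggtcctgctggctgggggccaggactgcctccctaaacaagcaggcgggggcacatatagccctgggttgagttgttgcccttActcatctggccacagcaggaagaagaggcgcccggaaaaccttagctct
MSN second window: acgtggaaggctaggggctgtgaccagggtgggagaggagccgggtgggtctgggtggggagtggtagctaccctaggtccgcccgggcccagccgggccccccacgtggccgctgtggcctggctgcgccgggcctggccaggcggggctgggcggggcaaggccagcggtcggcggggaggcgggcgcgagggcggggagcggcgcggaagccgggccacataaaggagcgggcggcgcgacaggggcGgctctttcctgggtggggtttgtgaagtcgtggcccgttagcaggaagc
EZR window: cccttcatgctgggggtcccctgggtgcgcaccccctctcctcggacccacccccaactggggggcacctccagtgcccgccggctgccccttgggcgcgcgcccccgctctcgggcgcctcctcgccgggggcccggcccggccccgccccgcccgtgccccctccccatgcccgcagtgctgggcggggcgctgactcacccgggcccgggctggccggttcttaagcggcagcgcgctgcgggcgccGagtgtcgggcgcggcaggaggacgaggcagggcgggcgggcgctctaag
The sequence TTCNNNGAA, the core bound by STAT proteins, was searched on both strands together with its stricter form TTCCNGGAA, every match of which is also a match of the first. Neither occurred in the windows shown or in that of RDX. Of all 35116 promoter windows in the table, 7.66% held TTCNNNGAA and 1.15% held TTCCNGGAA. The windows differed in base composition, with 57% G and C and 7 CpG in the first MSN window, 75% and 29 CpG in the second, and 80% and 36 CpG in that of EZR, against a median of 58.7% and 14 CpG over all windows.

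Of the listed transcripts, moesin had the highest level in NC and NC_Vec, and the summed ezrin transcripts stood well below it. On the scale of the deposited TPM, which corrects each transcript for its length, MSN averaged 194 ± 7.99 TPM in NC (SD, n = 4) and 213 ± 5.23 TPM in NC_Vec (SD, n = 3). The summed EZR transcripts averaged 25.8 ± 3.1 TPM in NC and 40.3 ± 0.401 TPM in NC_Vec. MSN was the transcript with the 31st to 33rd highest number of reads in the NC libraries.

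Radixin was nearly absent at its 2 listed transcripts. ENST00000405097 was listed at 0 in all 17 libraries. ENST00000343115 had reads in 4 libraries: 38 estimated reads in siHMGN5 replicate 1, 33 in NC replicate 1, 25 in siSTAT3_Vec replicate 3 and 114 in NC_Vec replicate 1. It was listed at 0 in the other 13 libraries. A single library thus carried all of its reads in each of these 4 groups, and no fold change is given for RDX. RefSeq lists 20 transcripts of RDX, and a read shared by several of them may have been assigned to one not followed here, so these values describe the 2 listed transcripts and not the gene. The floor of 3 reads covers counting error only and not this division of reads.

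**Figure D1:**
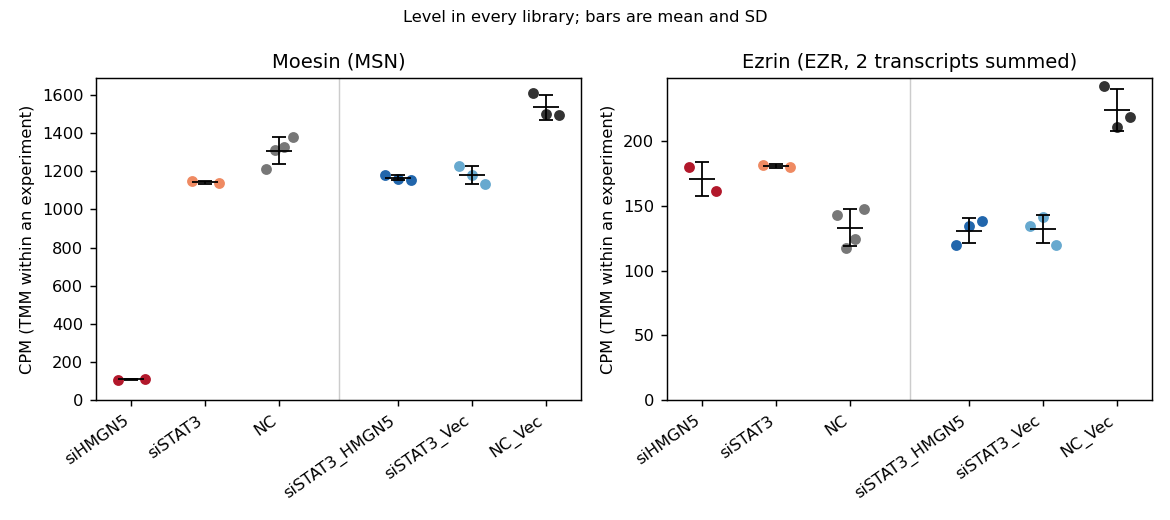
Level of moesin (left) and of the 2 summed ezrin transcripts (right) in CPM, scaled within each experiment, for every library of the 6 groups. Points are libraries and bars are the mean and SD; the 2 siHMGN5 libraries lie at 107 and 112 CPM for moesin, against 1213 to 1382 CPM in NC, and ezrin is higher in siHMGN5 and siSTAT3 than in NC but lower in siSTAT3_HMGN5 and siSTAT3_Vec than in NC_Vec.

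HMGN5 siRNA was accompanied by a low level of the listed moesin transcript. MSN lay at 107 and 112 CPM in the 2 siHMGN5 libraries, against 1213, 1309, 1325 and 1382 CPM in the 4 NC libraries. Both siHMGN5 libraries were far below every NC library, and the members of each group lay close together. The mean was 109 ± 3.62 CPM in siHMGN5 (SD, n = 2) and 1307 ± 70.6 CPM in NC (SD, n = 4), a log2 fold change of -3.58 ± 0.08 (SE of the fit), or 11.96-fold lower. In estimated reads these were 2121 and 2174 in siHMGN5, against 23858 to 26359 in NC, so counting error was small beside the difference. MSN stood 1196th and 1135th by number of reads in the siHMGN5 libraries, whereas it was among the first 33 in each NC library.

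The NC pairs differed little for moesin, with a log2 fold change of 0.10 ± 0.05 for NC replicates 3 and 4 over NC replicates 1 and 2. Against NC replicates 1 and 2 alone MSN was 11.5-fold lower in siHMGN5 (log2 fold change -3.53 ± 0.06), and against NC replicates 3 and 4 alone 12.4-fold lower (-3.63 ± 0.06). Among the 15812 transcripts averaging 10 CPM or more over the siRNA experiment, 58 had a lower log2 fold change than MSN in this comparison. Of the 5 transcripts, 4 passed the filter on low counts and 1, MSN, passed the threshold of the fit over all transcripts, as lower. Across all 74346 transcripts tested 2.45% were called lower, 0.943% higher and 3.39% in either direction. MSN was also the 1 transcript of the 5 whose groups did not overlap, whereas 14.3% of all transcripts were lower without overlap, 16.3% higher and 30.6% either. Nothing is read from these counts because the transcripts were chosen on these values. RNA of whole cultures was measured, so a low level in all cells and a loss in most of them cannot be told apart.

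Whether the reads of moesin had been assigned to another transcript in siHMGN5 could not be checked by name. The gap between the lowest NC library and the highest siHMGN5 library was 1101 CPM for MSN. Among 175775 transcripts, 9 had a gap of at least this size in the other direction, and these were 207 to 1378 bases long, against 3944 bases for MSN. Besides MSN, 2 transcripts had such a gap in the same direction as MSN. Reads divided among several transcripts need not leave such a gap in any of them. These values therefore cannot show where the reads went, which was not tested. A processed pseudogene of moesin, MSNP1, lies on chromosome 5 (25909315 to 25913278) and could share reads with it; its part in the values was not tested.

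Ezrin did not follow moesin after HMGN5 siRNA. The 2 EZR transcripts together lay at 180 and 161 CPM in siHMGN5, against 142, 118, 124 and 148 CPM in NC. Both siHMGN5 libraries were above every NC library. The mean was 170 ± 13 CPM in siHMGN5 (SD, n = 2) and 133 ± 14.4 CPM in NC (SD, n = 4). The log2 fold change was 0.36 ± 0.11 and did not pass the threshold of the edgeR fit. It passed in 1 of 15 alternatives with a test, DESeq2, which called 13.7% of all transcripts in this comparison. Against NC replicates 1 and 2 the log2 fold change was 0.39 ± 0.13, and against NC replicates 3 and 4 it was 0.32 ± 0.13. On the deposited TPM the difference was 0.19 on the log2(TPM + 1) scale, and the libraries overlapped there. Taken singly, the libraries of the groups overlapped for both transcripts, with log2 fold changes of 0.85 ± 0.43 for ENST00000337147 and 0.16 ± 0.15 for ENST00000367075.

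The order of the listed moesin and ezrin transcripts was turned round in siHMGN5. The ratio of MSN to the EZR sum, in TPM, was 0.457 and 0.534 in the siHMGN5 libraries, against 6.54 to 8.58 in NC. In the 15 libraries outside siHMGN5, MSN was 4.86 to 8.58 times the EZR sum, and in the 2 siHMGN5 libraries the EZR sum was 2.19 and 1.87 times MSN. MSN and EZR together came to 46.9 and 41.1 TPM in siHMGN5, against 212 to 232 TPM in NC. The EZR means were 29.5 TPM in siHMGN5 and 25.8 TPM in NC, a far smaller gap than that of MSN, at 14.5 TPM in siHMGN5 and 194 TPM in NC.

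**Figure D2:**
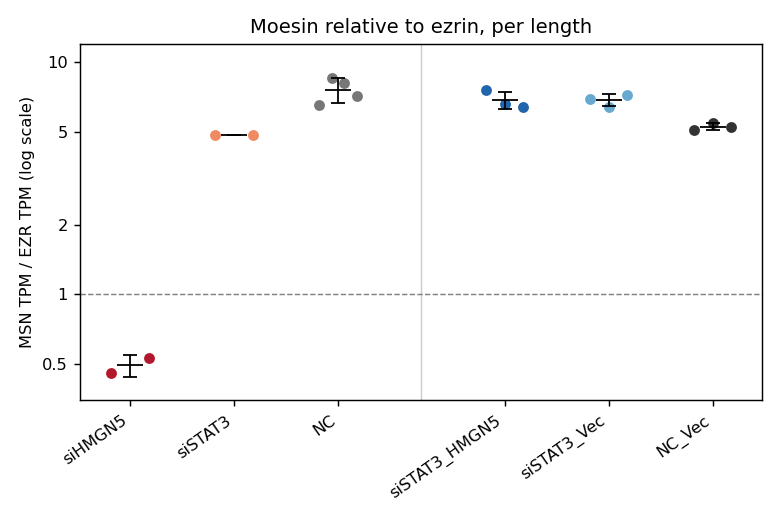
Ratio of moesin to summed ezrin in deposited TPM, on a log axis, for every library of the 6 groups, with the mean and SD as bars and a dashed line at equal levels. The 2 siHMGN5 libraries lie at 0.457 and 0.534, below the line, and the 15 other libraries between 4.86 and 8.58.

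STAT3 siRNA without a vector came with a much smaller difference in moesin. MSN lay at 1148 and 1138 CPM in siSTAT3, against 1213 to 1382 CPM in NC. The siSTAT3 libraries were both below every NC library, but the nearest NC library was only slightly higher. The log2 fold change was -0.19 ± 0.07 (1143 ± 7.36 CPM in siSTAT3, SD, n = 2, and 1307 ± 70.6 CPM in NC, SD, n = 4). It did not pass the threshold of the edgeR fit. It passed in 2 of 15 alternatives with a test, DESeq2 (14.4% of all transcripts called) and NC replicates 3 and 4 only. Against NC replicates 1 and 2 alone it was -0.14 ± 0.05, and against NC replicates 3 and 4 alone it was -0.24 ± 0.05, which passed, as did 9.85% of all transcripts there. The unit mattered here: on the log2(TPM + 1) scale of the deposited values the difference was -0.41, with 149 and 144 TPM in siSTAT3 against 185 to 203 TPM in NC.

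Ezrin was higher in siSTAT3 than in NC. The EZR sum lay at 182 and 180 CPM in siSTAT3, against 118 to 148 CPM in NC, without overlap. The log2 fold change was 0.44 ± 0.11 (181 ± 1.33 CPM in siSTAT3, SD, n = 2, and 133 ± 14.4 CPM in NC, SD, n = 4). It did not pass the threshold of the edgeR fit and passed in 1 of 15 alternatives with a test, DESeq2. Against the NC pairs it was 0.48 ± 0.13 with NC replicates 1 and 2 and 0.41 ± 0.13 with NC replicates 3 and 4. On the log2(TPM + 1) scale it was 0.22. Of the 5 transcripts, none was called by edgeR in siSTAT3 against NC; across all transcripts edgeR called 4.28% (1.36% higher, 2.92% lower). An unadjusted p under 0.05 was found for 2 of the 5, against 17.1% of all transcripts. DESeq2 called 1 of the 5 and 14.4% of all transcripts, and limma-voom 0 of the 5 and 4.76% of all. For 1 transcript, ENST00000337147, the groups did not overlap and siSTAT3 was higher (log2 fold change 1.16 ± 0.43), and for 1, MSN, siSTAT3 was lower, where 16.4% of all transcripts were higher without overlap, 14.4% lower and 30.9% either. For ENST00000337147 the value was 0.88 ± 0.49 against NC replicates 1 and 2 and 1.52 ± 0.50 against NC replicates 3 and 4.

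Set directly against each other, the knockdowns differed in moesin and hardly in ezrin. MSN was 10.5-fold higher in siSTAT3 than in siHMGN5, at 1148 and 1138 CPM in siSTAT3 and 107 and 112 CPM in siHMGN5 (log2 fold change 3.39 ± 0.09). The EZR sum lay at 182 and 180 CPM in siSTAT3 and at 180 and 161 CPM in siHMGN5, with a log2 fold change of 0.08 ± 0.13. Of the 5 transcripts, 1 was called, MSN, as higher, where 2.02% of all transcripts were called higher, 1.87% lower and 3.89% in either direction. MSN was the 1 transcript of the 5 higher without overlap, as were 26.5% of all transcripts, with 27.1% lower and 53.5% either. The siHMGN5 and siSTAT3 comparisons with NC share the NC libraries and so are not independent of each other.

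In cells carrying the empty vector, STAT3 siRNA came with lower moesin and lower ezrin. MSN lay at 1229, 1183 and 1135 CPM in siSTAT3_Vec, against 1611, 1502 and 1492 CPM in NC_Vec. Every siSTAT3_Vec library was below every NC_Vec library. The means were 1182 ± 47 CPM in siSTAT3_Vec and 1535 ± 66.2 CPM in NC_Vec (SD, n = 3 each), a log2 fold change of -0.38 ± 0.04, or 1.3-fold lower.

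The EZR sum lay at 134, 141 and 120 CPM in siSTAT3_Vec, against 242, 211 and 218 CPM in NC_Vec. These groups also did not overlap, and ezrin fell further below its control than moesin did, at a log2 fold change of -0.76 ± 0.09 (132 ± 10.9 CPM in siSTAT3_Vec and 224 ± 16.2 CPM in NC_Vec, SD, n = 3 each), or 1.7-fold lower. MSN and the EZR sum each passed the threshold of the fit in this comparison and in all 13 alternatives with a test. Of the 5 transcripts, 3 passed the filter and 2 were called lower, MSN and ENST00000367075, where 7.07% of all 69768 transcripts tested were called lower, 7.2% higher and 14.3% in either direction. The groups did not overlap for these 2 transcripts, and 18.4% of all transcripts were lower without overlap, 17.9% higher and 36.3% either. The call of ENST00000367075 (log2 fold change -1.19 ± 0.30) was lost in 7 of 13 alternatives, among them those without NC_Vec replicate 1, 2 or 3 and without siSTAT3_Vec replicate 3, which left 1 transcript called, MSN. Without siSTAT3_Vec replicate 1, ENST00000337147 passed as well and 3 were called. The fits without NC_Vec replicate 1, 2 or 3 called 11.3%, 10.3% and 10.6% of all transcripts. Those without siSTAT3_Vec replicate 1 or 3 called 9.53% and 10.1%, against 14.3% in the fit of all 9 libraries.

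**Figure D3:**
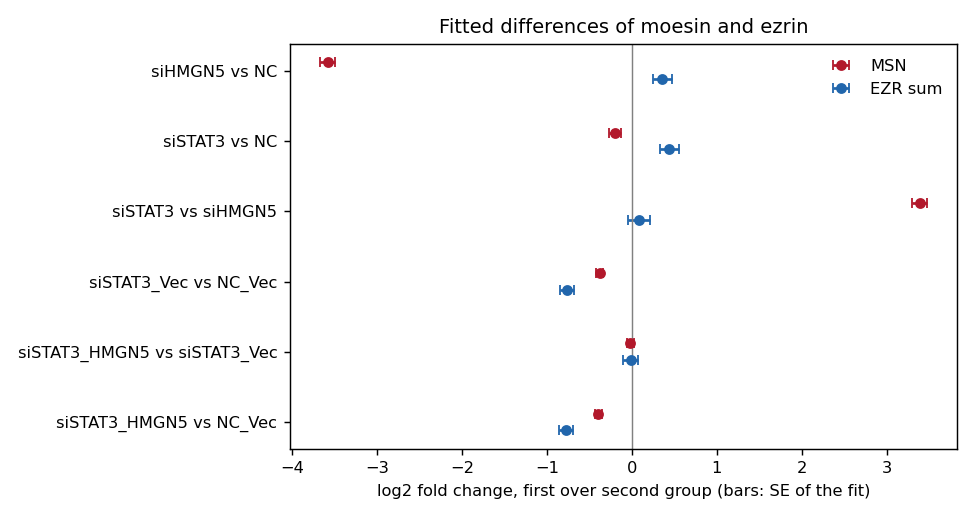
Log2 fold changes of moesin (red) and of summed ezrin (blue), first over second group, in the 6 comparisons, with the SE of the fit as bars. Moesin stands at -3.58 in siHMGN5 against NC and within 0.40 of 0 in the comparisons without siHMGN5; ezrin is on the positive side in both comparisons with NC and on the negative side in both with NC_Vec.

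The STAT3 siRNA effect on moesin thus had the same sign in both experiments, whereas that on ezrin did not. The log2 fold change of the EZR sum was 0.44 in siSTAT3 against NC and -0.76 in siSTAT3_Vec against NC_Vec. In a fit of all 17 libraries, log2 fold changes were higher in the siRNA experiment than in the lentiviral one. The difference was 1.18 ± 0.14 for the EZR sum and 0.16 ± 0.08 for MSN. For MSN this was a smaller decrease in the siRNA experiment. On the log2(TPM + 1) scale its values were nearly equal, at -0.41 in siSTAT3 against NC and -0.40 in siSTAT3_Vec against NC_Vec. The experiments share no library, and the effects of the vector and of the experiment cannot be told apart. The 2 sets of controls also differed in ezrin, with 39.9 to 40.7 TPM in NC_Vec and 22.2 to 28.4 TPM in NC.

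With ectopic HMGN5 moesin lay at nearly the level measured with the empty vector. MSN lay at 1182, 1161 and 1157 CPM in siSTAT3_HMGN5, against 1229, 1183 and 1135 CPM in siSTAT3_Vec. The siSTAT3_HMGN5 libraries lay inside the range of siSTAT3_Vec. The log2 fold change was -0.02 ± 0.04, with a 95% interval from -0.12 to 0.08 (1166 ± 13.5 CPM in siSTAT3_HMGN5 and 1182 ± 47 CPM in siSTAT3_Vec, SD, n = 3 each). The EZR sum lay at 120, 134 and 138 CPM in siSTAT3_HMGN5, against 134, 141 and 120 CPM in siSTAT3_Vec, and here too the groups overlapped. Its log2 fold change was -0.01 ± 0.08, with a 95% interval from -0.21 to 0.18. None of the 5 transcripts was called by edgeR, against 3.77% of all transcripts (1.52% higher, 2.25% lower). None of the 5 had an unadjusted p under 0.05, against 15.7% of all transcripts, and DESeq2 and limma-voom called 0 of the 5 each, against 11.7% of all with DESeq2 and 3.84% with limma-voom. The groups overlapped for every member with reads in both, whereas 12.3% of all transcripts were higher without overlap, 13.1% lower and 25.4% either.

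Set against NC_Vec, cells with STAT3 siRNA and ectopic HMGN5 had lower moesin and lower ezrin. MSN averaged 1166 ± 13.5 CPM in siSTAT3_HMGN5 and 1535 ± 66.2 CPM in NC_Vec (SD, n = 3 each), a log2 fold change of -0.40 ± 0.04. The EZR sum averaged 131 ± 9.67 CPM in siSTAT3_HMGN5 and 224 ± 16.2 CPM in NC_Vec, a log2 fold change of -0.78 ± 0.09. No library overlapped between these groups for either gene, and both passed the threshold in the fit and in all 13 alternatives with a test. Of the 5 transcripts, 2 were called lower, MSN and ENST00000337147, where 11.4% of all transcripts were called lower, 10.9% higher and 22.3% in either direction. For 3 transcripts, those 2 and ENST00000367075, siSTAT3_HMGN5 was lower without overlap, as were 22% of all transcripts, with 21% higher and 43% either. The call of ENST00000337147 (log2 fold change -0.78 ± 0.20) was lost in 5 of 13 alternatives, among them those without NC_Vec replicate 1 or 2 and without siSTAT3_HMGN5 replicate 1 or 3, which left 1 transcript called, MSN. The fits without NC_Vec replicate 1 or 2 called 17.3% and 16.7% of all transcripts. Those without siSTAT3_HMGN5 replicate 1 or 3 called 16.5% and 16.2%, against 22.3% in the fit of all 9 libraries. With DESeq2 (33.2% of all transcripts called) and with only the compared groups (22.8%), ENST00000367075 passed as well and 3 were called. This comparison shares NC_Vec with that of siSTAT3_Vec.

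The division of ezrin reads between its 2 transcripts was unsteady. ENST00000367075 (3096 bases) took 66% and 67.2% of the EZR reads in siHMGN5, 52.1% and 69.8% in siSTAT3, and 62.2% to 85.8% in NC. In the lentiviral experiment it took 49.9% to 59% in siSTAT3_HMGN5, 23.3%, 55.2% and 44% in siSTAT3_Vec, and 47.9% to 59.4% in NC_Vec. Replicates differed widely in this share in siSTAT3, NC and siSTAT3_Vec. The sum was steadier: in siSTAT3_Vec the SD was 43.3% of the mean for ENST00000367075, 28.2% for ENST00000337147 and 8.24% for their sum. The transcripts are of nearly equal length, at 3096 and 3068 bases, and reads that both can explain were divided by a model, so ezrin is better described by the sum.

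**Figure D4:**
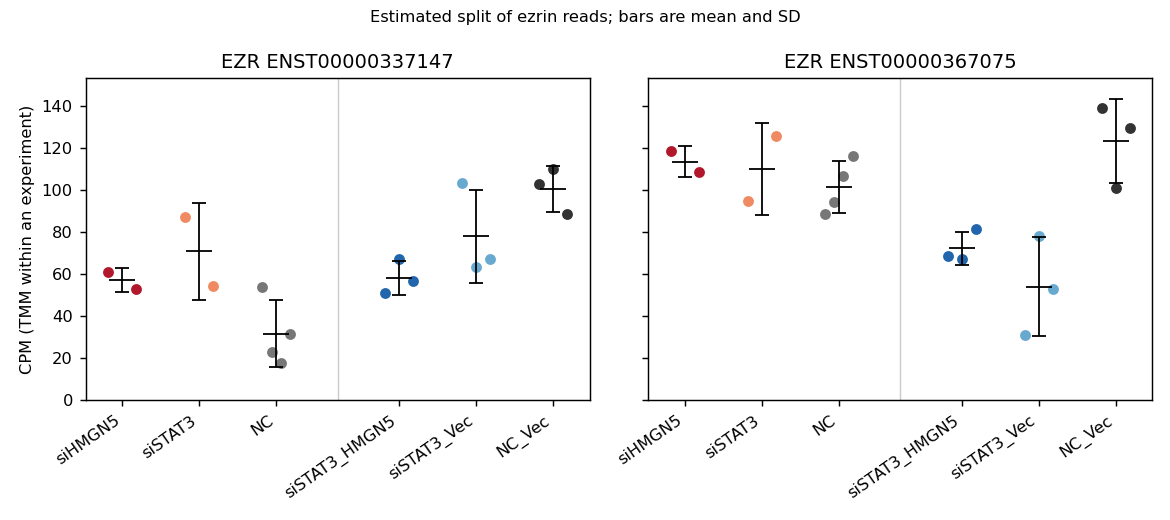
Level of each ezrin transcript in CPM, scaled within each experiment, in every library of the 6 groups, with the mean and SD as bars. In siSTAT3_Vec, ENST00000337147 ranges from 63.3 to 103 CPM and ENST00000367075 from 31.3 to 78 CPM, and the library highest for the first is lowest for the second.

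Ordered by mean TPM over the 6 groups, moesin was highest in NC_Vec (213 TPM), followed by NC (194 TPM), siSTAT3_Vec (161 TPM), siSTAT3_HMGN5 (160 TPM), siSTAT3 (146 TPM) and siHMGN5 (14.5 TPM). Neighbours in this order did not overlap, except siSTAT3_Vec and siSTAT3_HMGN5. Ezrin was ordered differently: NC_Vec (40.3 TPM) stood apart from all other groups, and siSTAT3 (30.1 TPM), siHMGN5 (29.5 TPM), NC (25.8 TPM), siSTAT3_Vec (23.5 TPM) and siSTAT3_HMGN5 (23.4 TPM) each overlapped with the next.

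The 2 transcripts whose levels were most like that of MSN over the 17 libraries, among 15824 averaging 10 CPM or more, were ENST00000444811 and ENST00000366766 (Pearson r of log2(CPM + 1) 0.98 for each). Both were listed at 0 in the 2 siHMGN5 libraries, and without these libraries r was 0.31 and 0.22, so the likeness rests on siHMGN5. ENST00000444811 lay at 15.3 to 28.7 CPM and ENST00000366766 at 18.2 to 39.5 CPM in NC. The EZR sum had an r of -0.05 with MSN over all 17 libraries. This value includes the siHMGN5 libraries too, and r of the EZR sum without them was not computed.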

How the data were processed

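The deposited tables list, for each of 17 libraries, the length, effective length, TPM and estimated count of reads of 175775 Ensembl transcripts, per the file headers. The deposited estimated counts need not be whole, because the authors' quantification divided shared reads between transcripts; the TPM of the authors are scaled by effective length within a library. The submitters' processing notes name Salmon 1.4.0 and GRCh38 among tools and builds; the transcript release and the use of strand are not given in the sources used here.

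Counts were rounded and fitted over all transcripts, with 1 fit over the 8 siRNA libraries and 1 over the 9 lentiviral ones, in edgeR 4.0.16 (R 4.3.3; TMM, filterByExpr, glmQLFit, glmQLFTest, Benjamini-Hochberg threshold 0.05). Each SE is the size of the log2 fold change divided by the root of its F statistic. The sums of the 2 EZR and of the 2 RDX transcripts came from a second fit with those rows replaced by their sum. Fits were tested on simulated data that held neither the NC pairs nor the division of reads between transcripts. Alternatives used DESeq2 1.42.0, limma-voom 3.58.1 and others given at the end. A list of partners of the family was planned and not used here, since IDs and gene names are not paired. The named transcripts were the 5 members and the 2 most correlated with MSN. The H3K27ac samples were not analysed here. Members, lists and alternatives were chosen with earlier results of these data known.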

Additional observations from a re-analysis of the deposited data

Results flagged for a closer look

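The summed EZR transcripts moved in opposite directions under STAT3 siRNA in the 2 experiments. Both siSTAT3 libraries lay above every NC library, and all 3 siSTAT3_Vec libraries lay below every NC_Vec library. The difference of siSTAT3 from NC did not pass the threshold of the edgeR fit, whereas that of siSTAT3_Vec from NC_Vec did. The log2 fold change in the siRNA experiment lay 1.18 ± 0.14 above that in the lentiviral experiment. The difference was not tested, because the genes were chosen with these values known.

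NC replicate 1 stood apart from the other NC libraries for RDX ENST00000343115, at 1.67 CPM, while the transcript was listed at 0 in NC replicates 2, 3 and 4. With the other 3 libraries at 0, any reads in the fourth give such a gap, so the chance of about 1 group in 20 that holds for continuous values does not apply here.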

How the results depend on the processing

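The log2 fold changes of MSN and of the EZR sum kept their sign under every alternative in all comparisons except siSTAT3_HMGN5 against siSTAT3_Vec, where both lay near 0. With the deposited TPM, siSTAT3 against NC gave -0.41 for MSN and 0.22 for the EZR sum, siHMGN5 against NC gave 0.19 for the EZR sum, and siSTAT3 against siHMGN5 gave 3.25 for MSN. With library totals only, that last value was 3.32. The cause was not tested. Leaving out 1 library at a time gave 3.34 to 3.41 for MSN and 0.0013 to 0.15 for the EZR sum in siSTAT3 against siHMGN5, the lowest value of the EZR sum being that without siHMGN5 replicate 2. With siSTAT3 against NC, 1 of the 5 transcripts was called with DESeq2 and 1 against NC replicates 3 and 4 only, MSN in both cases; these settings also called more of all transcripts, at 14.4% and 9.85% against 4.28%. In siSTAT3_Vec against NC_Vec the number called was 1 without a filter on low counts, where 5.97% of all transcripts were called. It was 1 with only the compared groups (14.6% of all) and 1 to 3 when 1 library was left out (9.3% to 11.3%). The fit of all 9 libraries called 14.3%. In siSTAT3_HMGN5 against NC_Vec the number was 1 to 2 when 1 library was left out (16.2% to 17.3% of all). It was 3 with DESeq2 (33.2%) and with only the compared groups (22.8%), against 22.3% in the fit of all 9 libraries. With a replicate block the number called was 1 in siSTAT3_Vec against NC_Vec (10.8% of all) and 1 in siSTAT3_HMGN5 against NC_Vec (17.7%). In both cases this was MSN. Same-numbered libraries did not deviate together in the lentiviral experiment (r of -0.089 to 0.052 over 9 pairs), where 4 of 18 best matches fell on the same number. In the siRNA experiment r was 0.008 to 0.037, with NC replicates 3 and 4 left out. With 2 libraries per group, replicates 1 and 2 give the same r there by construction. These values gave no sign that the numbers pair the samples. No fold change is reported for RDX under any setting. Fits without 1 library of a pair assume that the lone library varies like the other groups. The siHMGN5 and siSTAT3 groups hold 2 libraries each, which limits every comparison of the siRNA experiment.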
